A study of Mus musculus with 6 samples.

Results

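The 10 genes described here are Atf3, Jun, Sox11, Gap43, Sprr1a, Flrt3, Ecel1, Gpr151, Npy and Csf1, a set known for its induction in sensory neurons whose axons have been cut. They were chosen by name, and all 10 were found among the 54242 gene symbols of the table. They account for 25 of its 140992 transcripts. Each gene's value is the sum over its transcripts in TPM (a share of all transcripts in a library, allowing for transcript length, that sums to 1000000). The RNA came from dorsal root ganglia, which hold the cell bodies of sensory neurons, at the levels L4-6 of male C57bl/6 mice aged 8 to 10 weeks. In 3 libraries the mice had free access to food (ad libitum, called fed), and in the other 3 they had followed intermittent fasting for 10 days (called fasted); per the labels, mice were sacrificed after 24 hours, and no label says after what, nor whether replicates are single animals or pooled ones. Neither group is described as carrying a nerve injury, a transgene or a drug. In both groups the ganglia were dissociated with enzymes and enriched for neurons on a BSA gradient. Dissociation severs axons, and all libraries went through it.

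When a peripheral axon is cut, the neuron switches on a growth programme led by transcription factors of the AP-1 and ATF families and by SOX11, and its cell body makes growth cone proteins, peptides and signals to glia and immune cells. Atf3 is nearly silent in intact sensory neurons and is used as a mark of injured ones; Sprr1a, Ecel1, Gpr151 and Flrt3 are induced with it. Gap43 and Jun are already expressed in uninjured ganglia. The study's title concerns leptin and axon regeneration, and the design compares the diets.

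The promoter letters are shown first because AP-1 and ATF proteins, named above as leading the growth programme, bind short motifs. RefSeq windows (GRCm38.p6, 250 bases before to 50 after each start site, printed on the gene's strand) matched 8 of the 10 genes; Gap43 and Gpr151 were not matched. Both strands were searched for TGANTCA (AP-1), TGACGTCA (the cyclic AMP response element, CRE) and TTCCNGGAA (STAT), with N as any base. TGACATCA and TTACGTCA, each 1 base away from the CRE, were added after the windows had been seen. None of the matches found overlapped another. The window of Sprr1a, the gene with the widest spread here, is chr3:92485832-92486131, minus strand; that of Atf3 is chr1:191183284-191183583, minus strand, and that of Jun, the member with the opposite direction, is chr4:95052173-95052472, minus strand. Capitals mark the matches.
Sprr1a: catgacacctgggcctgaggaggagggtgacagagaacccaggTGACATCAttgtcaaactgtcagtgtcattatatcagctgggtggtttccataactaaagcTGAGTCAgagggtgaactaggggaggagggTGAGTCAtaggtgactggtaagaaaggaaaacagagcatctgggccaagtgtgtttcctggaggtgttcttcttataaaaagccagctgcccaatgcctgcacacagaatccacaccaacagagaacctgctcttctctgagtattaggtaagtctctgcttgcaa
Atf3: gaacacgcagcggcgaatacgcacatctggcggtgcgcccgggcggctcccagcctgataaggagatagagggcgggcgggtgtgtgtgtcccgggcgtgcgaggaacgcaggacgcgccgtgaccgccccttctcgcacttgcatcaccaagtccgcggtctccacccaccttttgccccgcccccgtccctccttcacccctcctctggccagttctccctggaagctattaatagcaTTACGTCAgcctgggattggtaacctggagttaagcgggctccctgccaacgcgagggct
Jun: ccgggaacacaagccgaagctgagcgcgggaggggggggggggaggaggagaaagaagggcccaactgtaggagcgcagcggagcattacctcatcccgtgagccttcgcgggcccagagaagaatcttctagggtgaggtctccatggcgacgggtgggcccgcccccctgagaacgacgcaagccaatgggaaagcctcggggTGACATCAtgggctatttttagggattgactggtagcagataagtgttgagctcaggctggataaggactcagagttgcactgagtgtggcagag
Stretches of 30 bases around the matches in Flrt3 (window chr2:140671427-140671726, minus strand) and Sox11 (window chr12:27342669-27342968, minus strand) are shown because both have the same letters as Jun, in Sox11 on the other strand, at nearly the same distance from the RefSeq start site. For Sox11 that start (27342718) lies upstream of the start of the GENCODE transcript measured here (27342574).
Flrt3: ctgcccacctaTGACATCAcccccttcctc
Sox11: ggtgggagtagTGATGTCAcccatatgaca

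Sprr1a was the only one of the 8 windows with an AP-1 match, and it had 2, beginning at -146 and -116 from the start site. Among all 32851 windows, 7.81% had such a match. TGACATCA, read on either strand, occurred in 4 of the 8 windows, at -45 in Jun, -42 in Sox11 (as TGATGTCA), -41 in Flrt3 and -207 in Sprr1a, against 3.62% of all windows. Atf3 had TTACGTCA at -10, which 0.499% of all windows hold. None of the 8 held the CRE (1.79% of all windows) or the STAT letters (1.15%). TGACATCA and TTACGTCA were picked from these same windows, so their excess over all windows is no sign of enrichment. These matches describe letters in a window and show no binding. The Atf3, Npy and Sox11 windows held 27, 24 and 21 CpG dinucleotides and that of Sprr1a held 0, against a median of 7.0 over all windows.

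Fed replicate 2 stood apart from the other libraries in the RNA of other cell types. The summed TPM of 15 skeletal muscle genes was 4779 there and 284.1 to 685.4 in the other 5 libraries, and Ckm, muscle creatine kinase, was at 490.0 TPM against 9.07 to 52.2 TPM. Pvalb, 1 of the 15 and not made by muscle alone, was at 542.9 TPM there and 197.4 to 234.9 TPM elsewhere. It supplied much of the lower sums, as 201.3 of the 284.1 TPM in fasted replicate 1. The 12 macrophage markers summed to 178.3 TPM there, against 150.5 and 151.7 TPM in the other fed libraries and 107.0 to 124.4 TPM in the fasted ones; all 12 averaged 1 TPM or more, and 12 of 12 were lower in fasted libraries (median -0.39; limma on log2(TPM + 1), 0 passed after adjustment, 8 at an unadjusted p under 0.05, as were 3.22% of all tested genes in this direction). The 10 endothelial markers were also all lower (median -0.26). The 10 neuron markers, all higher in fasted libraries (median 0.08), summed to 11887 TPM in fed replicate 2 and to 12711 to 13492 TPM elsewhere. In bulk RNA, fewer cells of a type and less RNA per cell cannot be told apart. The part of muscle or macrophage RNA in the values of that library given below was not tested. Satellite glia, Schwann cell and fibroblast markers were divided in direction (4 of 8, 5 of 8 and 4 of 8 higher). The 6 erythrocyte genes were all higher (median 0.73), with Hba-a2 at 1280 TPM in fasted replicate 3 and 456.6 to 923.9 TPM elsewhere.

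The levels of the 10 genes covered a wide range. Gap43, a growth cone membrane protein (chromosome 16, 42248442 to 42340651, GRCm38, minus strand), averaged 267.9 TPM over the 6 libraries and ranked 657th among the 15097 genes that averaged 1 TPM or more and were tested. Jun followed at 67.2 TPM. Flrt3 (9.72 TPM), Atf3 (9.67 TPM) and Csf1 (8.96 TPM) lay close together and did not differ beyond their spread over libraries. Sprr1a averaged 4.34 TPM, Sox11 1.93 TPM, Gpr151 1.599 TPM, Npy 1.29 TPM and Ecel1 1.16 TPM, and these 5 overlapped one another in their ranges. All 10 passed the filter of 1 TPM, Ecel1 and Npy only narrowly. TPM keeps no read depth, so no counting interval can be given, and values near 1 TPM carry an unknown counting error.

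None of the 10 genes passed the test of fasted against fed (limma on log2(TPM + 1), Benjamini-Hochberg over all tested genes, adjusted p under 0.05), where 1 gene of 15097 passed (0.00662%). At an unadjusted p under 0.05 there were 2, Jun (higher) and Gpr151 (lower), against 9.94% of all tested genes (6.72% higher and 3.22% lower). Jun was under 0.05 in every setting tried. Gpr151 was not with a pseudocount of 0.1, no filter, quantile normalization, array weights or a replicate block, nor without any 1 library other than fed replicate 3 (unadjusted p up to 0.15 by limma). Fold changes below are on the log2(TPM + 1) scale, which understates those of low genes. In direction, 1 of the 10 was higher and 9 were lower after fasting (median of the 10, -0.13), where Ecel1 and Sprr1a, with fasted means of 0.55 and 0.99 TPM, passed the filter only through the fed libraries; over all tested genes 62.5% were higher, 37.5% were lower and the median was 0.03. The split of 1 and 9 was also found under 4 other scalings, under which 45.3% to 49.7% of all genes were lower. It was 5 higher and 4 lower without fed replicate 2, where Ecel1 was under the filter. With array weights, or without fasted replicate 1, it was 3 and 7. It was 2 and 8 without fed replicate 1, fasted replicate 2 or fasted replicate 3, and 1 and 9 without fed replicate 3.

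**Figure D1:**
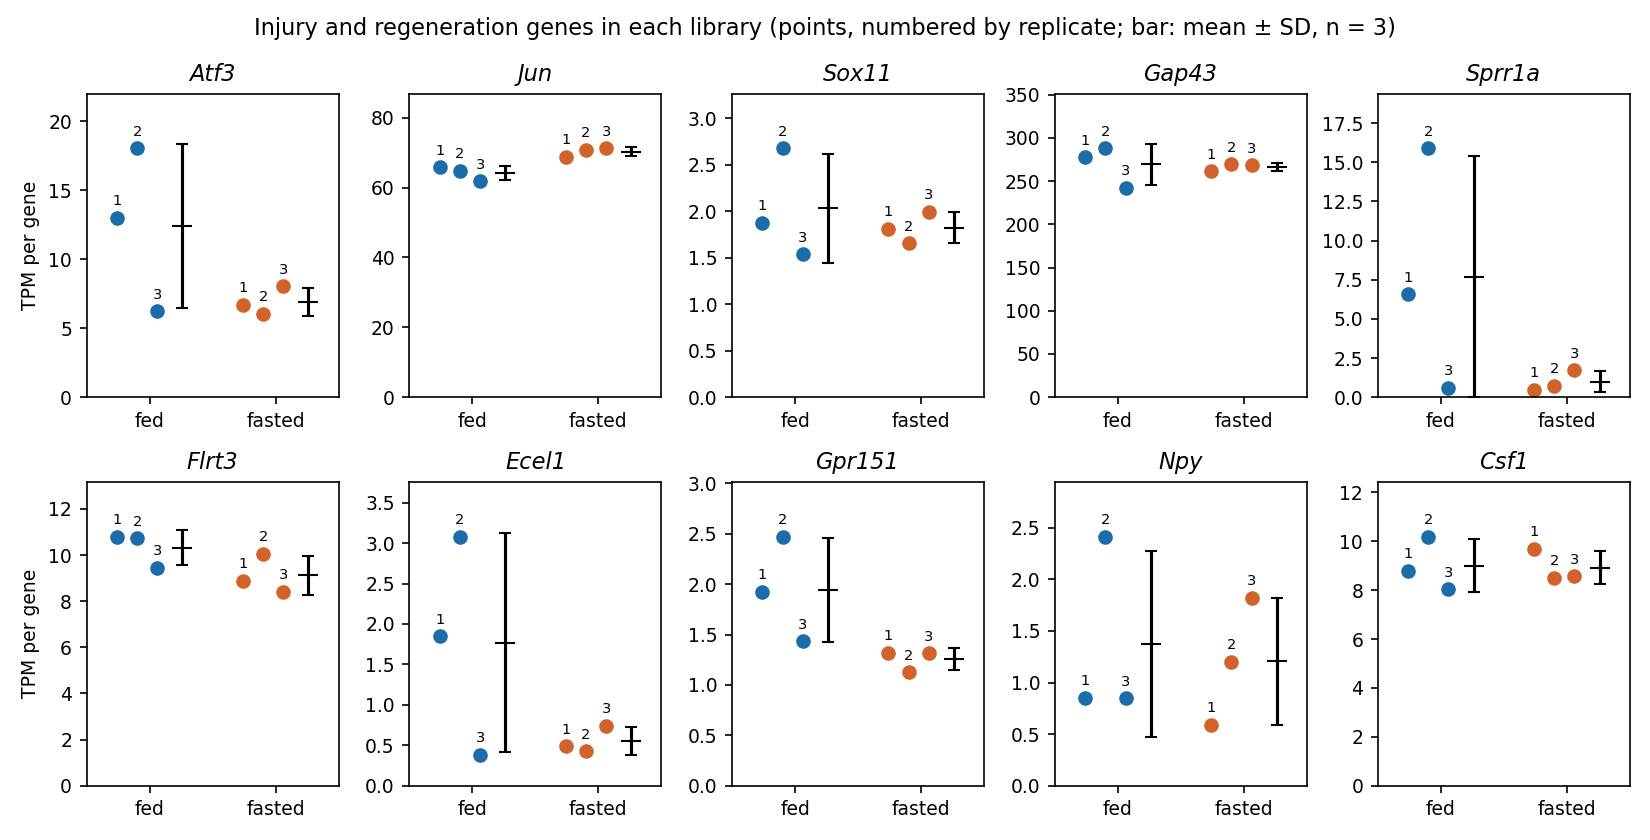
TPM per gene (vertical axes from 0, a scale for each gene) in the 3 fed and 3 fasted libraries; points are libraries numbered by replicate, bars are the mean ± SD. Atf3, Sprr1a and Ecel1 have 2 high fed libraries (replicates 1 and 2) and replicate 3 at the fasted level, while Jun and Gpr151 do not overlap between diets.

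Among the transcription factors, Atf3 (chromosome 1, 191170296 to 191218039, minus strand) had the widest spread. It lay at 13.0, 18.04 and 6.22 TPM on the fed side (replicates 1, 2 and 3) and 6.70, 6.03 and 8.03 TPM on the fasted side. Fed replicates 1 and 2 stood above all other libraries, and fed replicate 3 was inside the fasted range. The log2 fold change was -0.66 (standard error 0.32; limma, adjusted p = 0.52). It was -0.35 without fed replicate 2 and -1.05 without fed replicate 3, and the adjusted p did not fall below 0.23 in any setting tried.

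Jun (chromosome 4, 95049034 to 95052222, minus strand), a partner of ATF3 in AP-1 dimers, showed another order. Its values were 65.8, 64.8 and 61.8 TPM (fed 1 to 3) and 68.8, 70.8 and 71.3 TPM (fasted 1 to 3). All 3 fasted libraries were above all 3 fed ones, as for 12.7% of all tested genes in this direction. The log2 fold change was 0.13 (standard error 0.04; limma, adjusted p = 0.48, unadjusted 0.013). Its residual spread within a diet, 0.04 on the log2 scale, was larger than that of only 8.19% of tested genes, against 97.4% for Atf3. The value ran from 0.10 to 0.15 over all settings, and was 0.10 with mitochondrial genes left out of the scaling.

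Sox11 (chromosome 12, 27334264 to 27342574, minus strand), a developmental factor that injured neurons express again, lay at 1.88, 2.68 and 1.54 TPM (fed 1 to 3) and 1.81, 1.66 and 1.99 TPM (fasted 1 to 3). The diets overlapped, with fed replicate 2 highest and fed replicate 3 lowest (log2 fold change -0.09, standard error 0.16).

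Gap43 was at 277.6, 287.9 and 242.4 TPM (fed 1 to 3) and 261.3, 269.5 and 268.3 TPM (fasted 1 to 3). The fasted values lay within the fed range, and the log2 fold change was -0.01 (standard error 0.06). Of the 10 genes, Gap43 and Csf1 had differences nearest to 0.

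Sprr1a (chromosome 3, 92483952 to 92485895, minus strand), which codes for a small proline-rich protein that promotes neurite growth, had the largest fold change of the 10 and the largest spread. It was at 6.58, 15.9 and 0.60 TPM on the fed side (replicates 1, 2 and 3) and 0.49, 0.74 and 1.73 TPM on the fasted side. As for Atf3, fed replicates 1 and 2 were above the rest and fed replicate 3 was among the fasted values. The log2 fold change was -1.62 (standard error 0.76; limma, adjusted p = 0.52). It was -0.86 without fed replicate 2 and -2.56 without fed replicate 3. Its residual spread within a diet, 1.26 on the log2 scale, exceeded that of 99.3% of tested genes.

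Ecel1 (chromosome 1, 87147655 to 87156521, minus strand), a membrane endopeptidase of neurons, had the same 3 highest libraries as Atf3 and Sprr1a at a lower level. It was at 1.85, 3.08 and 0.39 TPM (fed 1 to 3) and 0.49, 0.42 and 0.74 TPM (fasted 1 to 3). Fed replicate 3 was the lowest of all 6. The log2 fold change was -0.71 (standard error 0.37; limma, adjusted p = 0.53). It was -1.18 with a pseudocount of 0.1, where Sprr1a was at -2.13 and Gpr151 at -0.57. Without fed replicate 2 the mean of Ecel1 was under 1 TPM and no test was made.

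Gpr151, an orphan G protein-coupled receptor, lay at 1.93, 2.47 and 1.43 TPM (fed 1 to 3) and 1.32, 1.13 and 1.32 TPM (fasted 1 to 3). Fed replicates 1 and 2 were again highest, and here fed replicate 3 was also above the fasted values, as for 5.07% of all tested genes in this direction. The log2 fold change was -0.37 (standard error 0.16; limma, adjusted p = 0.50, unadjusted 0.049), and -0.24 without fed replicate 2. In both directions together 2 of the 10 genes, Jun and Gpr151, did not overlap between diets, against 17.8% of all tested genes. Without fed replicate 3 there were 7, against 32.8%. A permutation over libraries cannot give either a p below 0.1 with 3 against 3.

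Flrt3 (chromosome 2, 140650914 to 140671469, minus strand), a leucine-rich repeat membrane protein, was at 10.8, 10.7 and 9.44 TPM (fed 1 to 3) and 8.90, 10.0 and 8.40 TPM (fasted 1 to 3). Fed replicate 3 and fasted replicate 2 crossed, so the diets overlapped (log2 fold change -0.16 with a standard error of 0.09; adjusted p = 0.53 by limma).

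The secreted members showed no order by diet. Npy, neuropeptide Y, which large sensory neurons begin to make after axotomy (chromosome 6, 49822710 to 49829507, plus strand), was at 0.85, 2.41 and 0.85 TPM (fed 1 to 3) and 0.59, 1.20 and 1.82 TPM (fasted 1 to 3). The highest was fed replicate 2 and the next was fasted replicate 3, so Npy did not share the high fed replicate 1 of Atf3 (log2 fold change -0.08, standard error 0.30). Csf1, the cytokine with which injured sensory neurons act on microglia and macrophages (chromosome 3, 107741048 to 107760469, minus strand), was at 8.80, 10.2 and 8.03 TPM against 9.69, 8.50 and 8.57 TPM. These ranges overlapped almost wholly (log2 fold change -0.01, standard error 0.10).

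**Figure D2:**
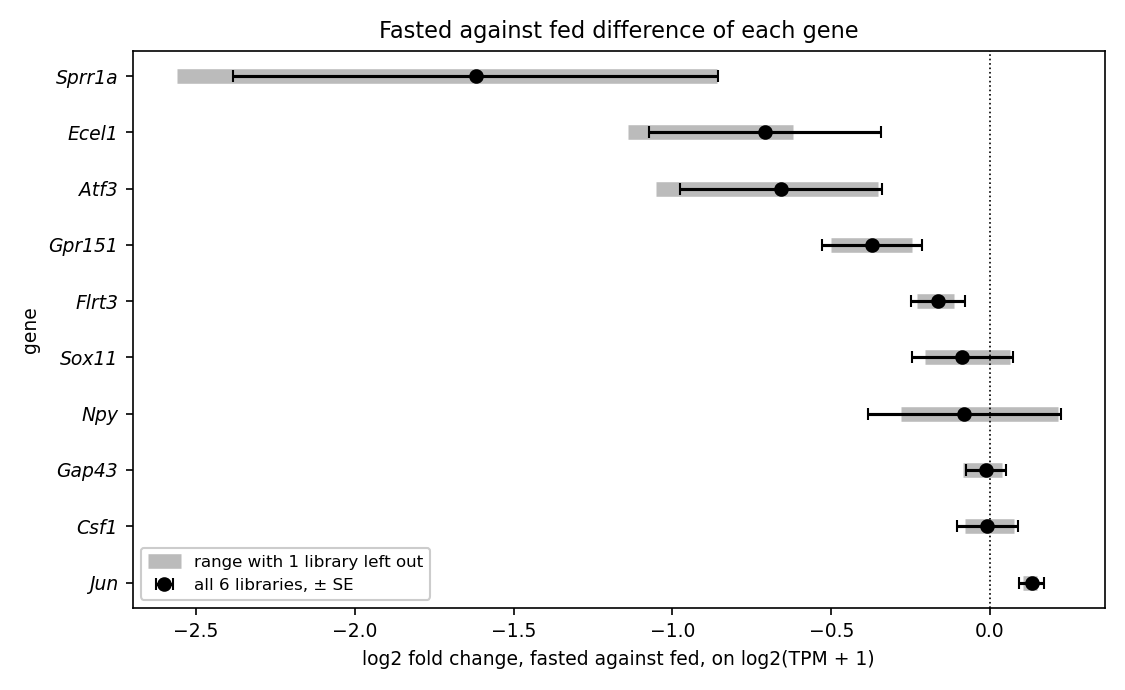
Log2 fold change of fasted against fed on log2(TPM + 1) for each gene (horizontal axis); points are the values from all 6 libraries with their standard error, grey bars the range with 1 library removed (5 of 6 for Ecel1). Sprr1a runs from -2.56 to -0.86 and Atf3 from -1.05 to -0.35, while the bars of Gap43, Csf1, Sox11 and Npy cross 0.

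The transcripts of Atf3 divided the libraries further. GENCODE M21 (GRCm38) lists 3 Atf3 transcripts, and 1 of them was at 0 in all libraries. Atf3-201 starts at 191183340. Atf3-203 starts at 191218039, 34699 bases further upstream, with a first exon of 170 bases (191217870 to 191218039) that is entirely 5′ UTR. The other 3 exons and the coding segments are the same in both, so the estimates differ only through reads that touch the first exons.

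Atf3-203 was at 1.80, 5.49 and 0.12 TPM (fed 1 to 3) and at 0.20, 0 and 0 TPM (fasted 1 to 3). It made up 13.9% and 30.4% of Atf3 in fed replicates 1 and 2, 1.90% in fed replicate 3, and 2.96%, 0% and 0% in fasted libraries. Atf3-201 alone was at 11.2, 12.6 and 6.10 TPM (fed 1 to 3) and 6.50, 6.03 and 8.03 TPM (fasted 1 to 3). The libraries with the most Atf3 thus had both more of Atf3-201 and nearly all of the Atf3-203. Transcript values were described without a test, and the uncertainty of their estimation is not in the table.

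Gap43 also has a minor transcript that varied. Gap43-202, a non-coding transcript of 2 exons, was at 8.32, 16.7 and 1.89 TPM (fed 1 to 3) and 3.20, 15.6 and 28.5 TPM (fasted 1 to 3), between 0.780% and 10.6% of the gene. The coding Gap43-201 was at 269.3, 271.2 and 240.5 TPM (fed 1 to 3) and 258.1, 253.9 and 239.8 TPM (fasted 1 to 3). Fasted replicate 3 therefore had the least coding transcript and the most of the non-coding one. The 2 share only 657 bases, all in the last exon of the gene.

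The Csf1 total came mostly from Csf1-201 (57.1% over all libraries) and Csf1-202 (31.8%), which code for products of different length. Csf1-201 was at 5.24, 5.78 and 3.78 TPM (fed 1 to 3) and 4.97, 5.33 and 5.57 TPM (fasted 1 to 3), with fed replicate 3 apart from the other 5. In Flrt3, 93.0% came from Flrt3-202. Ecel1 was divided among 4 transcripts, of which only Ecel1-203 was above 0 in all 6 libraries. Jun, Sox11, Sprr1a, Gpr151 and Npy have 1 transcript each in the table.

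**Figure D3:**
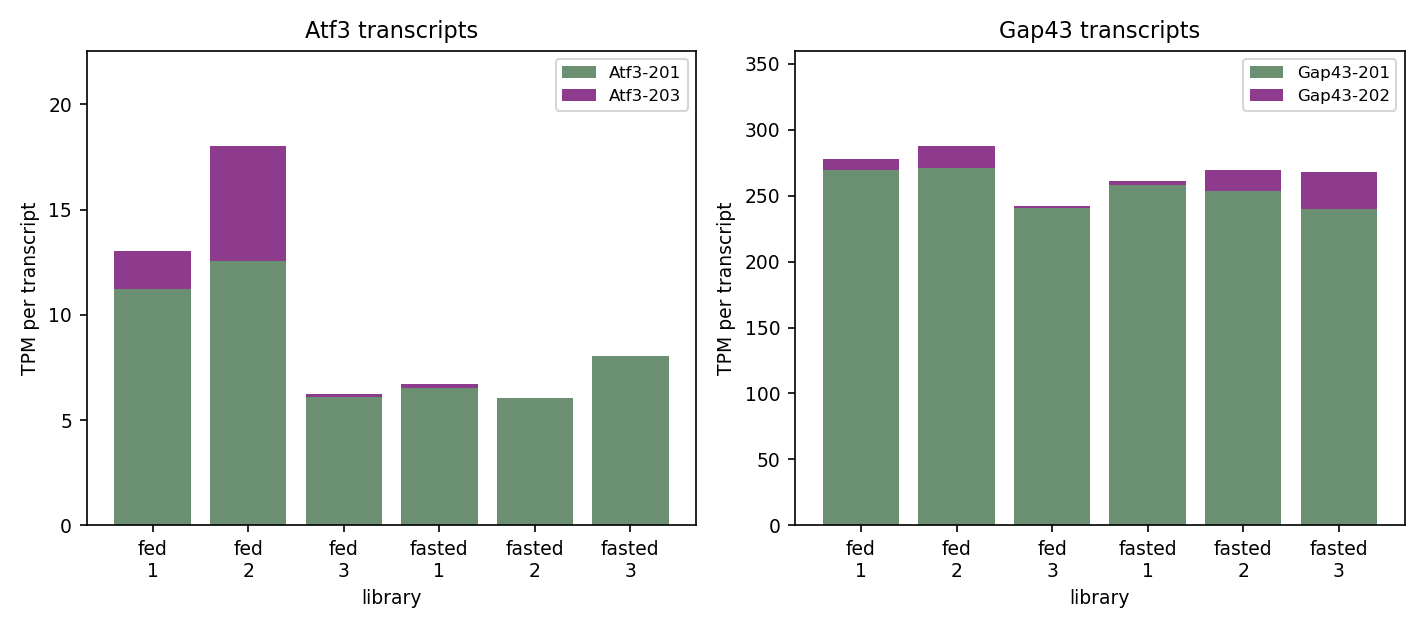
TPM of the 2 detected Atf3 transcripts and of the 2 Gap43 transcripts, stacked, in each library (vertical axes from 0). Atf3-203 reaches 1.80 TPM in fed replicate 1, 5.49 TPM in fed replicate 2 and no more than 0.20 TPM elsewhere, and Gap43-202 is highest, at 28.5 TPM, in fasted replicate 3.

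Across libraries, Atf3, Sprr1a, Ecel1 and Gpr151 had the same 2 libraries on top: fed replicate 2 first and fed replicate 1 second in each. On the log2 scale, fed replicate 2 lay above the gene's mean over 6 libraries by 0.94 in Atf3, 2.33 in Sprr1a, 1.05 in Ecel1 and 0.44 in Gpr151. Fed replicate 1 lay above it by 0.50, 1.17, 0.53 and 0.19. In Atf3, Sprr1a and Ecel1 the third place was taken by fasted replicate 3. Fed replicate 1, the second highest for Atf3, Sprr1a, Ecel1 and Gpr151, had a muscle sum of 542.6 TPM, of which Pvalb supplied 214.9 TPM. That sum lay inside the range of the other 4 libraries, and the part of muscle RNA in these genes was not tested. Because these genes divide the libraries into 2 separate sets, their likeness is described by rank and no pooled correlation of theirs is printed; their pairs enter the counts over all pairs.

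Over the whole set, fed replicate 2 was the highest library for 8 of the 10 genes, all but Jun and Flrt3. Fed replicate 3 was the lowest for 5: Jun, Sox11, Gap43, Ecel1 and Csf1. The same counts were not made over all tested genes, so they are not shown to be particular to the set. Of the 45 pairs of genes, 39 had a positive Pearson correlation over the 6 libraries, 32 without fed replicate 2 and 45 after each gene was centred by diet, and none passed an exact permutation test after Benjamini-Hochberg adjustment over the 45 (smallest adjusted p = 0.125, shared by the 3 pairs among Atf3, Sprr1a and Ecel1; 12 pairs at an unadjusted p under 0.05 by Pearson and 4 by Spearman). Each of the 12 and of the 4 held Atf3, Sprr1a or Ecel1, and Sprr1a and Ecel1 passed the filter only through the fed libraries. Neither positive pairs nor pairs under 0.05 were counted among other genes. So 39 or 45 of 45, and the 12 and 4, have no background to be read against. The smallest p that 6 libraries allow is 0.0014, which adjusts to 0.0625 when 1 pair alone reaches it. Of the pairs without Atf3, Sprr1a, Ecel1 or Gpr151, the 2 with the largest r both held Sox11. Sox11 and Gap43 had r = 0.81 (exact permutation p = 0.069, adjusted p = 0.21) and rho = 0.71 (exact permutation p = 0.14, adjusted p = 0.34). This r was 0.72 without fed replicate 2 and 0.82 centred by diet, but 0.12 over the 4 libraries left without fed replicates 2 and 3, so it rests on that pair of libraries. Sox11 and Csf1 had r = 0.80 (exact permutation p = 0.050, adjusted p = 0.17) and rho = 0.77 (exact permutation p = 0.10, adjusted p = 0.33), with r = 0.49 without fed replicate 2, 0.82 centred by diet and 0.00047 without fed replicates 2 and 3.

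**Figure D4:**
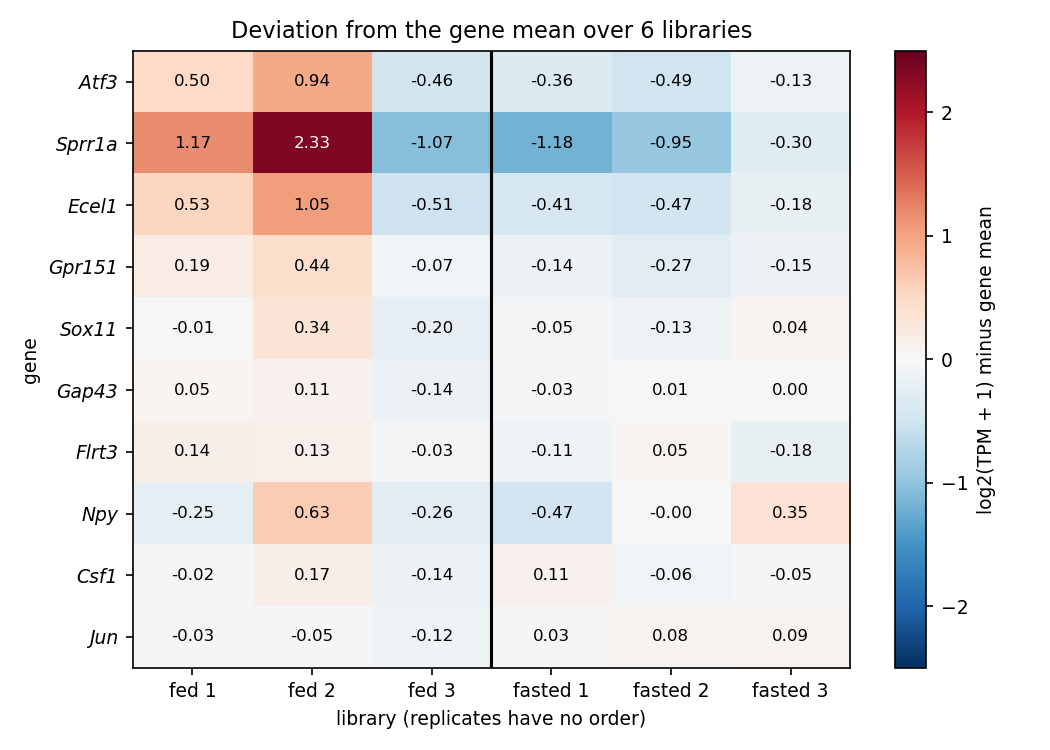
Difference of log2(TPM + 1) from each gene's mean over the 6 libraries (colour and printed value), with genes as rows and libraries as columns; the line divides fed from fasted. Fed replicates 1 and 2 are above the mean in Atf3, Sprr1a, Ecel1 and Gpr151, and Jun is above it in the 3 fasted libraries only.

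The genes with the pattern most like Atf3, by Pearson correlation of log2(TPM + 1) over the 6 libraries among 401 genes that averaged 5 TPM or more and had an SD of at least 0.25, were F11r (a junctional adhesion molecule, r = 0.98), a predicted gene (r = 0.98), Mgp (matrix Gla protein, r = 0.96), Nts (r = 0.94) and Bdnf (r = 0.93). With 6 libraries, of which 2 stand above the rest, such values describe likeness only. Nts, the neuropeptide neurotensin, was at 14.3, 25.1 and 8.94 TPM (fed 1 to 3) and 11.4, 9.93 and 10.8 TPM (fasted 1 to 3). Bdnf, a neurotrophin made by sensory neurons, was at 29.8, 29.7 and 19.0 TPM against 19.3, 20.9 and 20.02 TPM. Both repeat the high fed replicates 1 and 2 and the fed replicate 3 at the fasted level. For Gap43 the 5 most alike of 402 were all predicted or clone names (r = 0.89 to 0.98).

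Beyond the 10 genes, 40 further regeneration-associated genes passed the filter, and none passed the test. Whether their directions differ by role was not tested. Of 9 other transcription factors, 7 were higher and 2 lower in fasted libraries (median 0.08; limma, 1 at an unadjusted p under 0.05). Among all tested genes 62.5% were higher, and 6.72% were higher at an unadjusted p under 0.05, so these counts are near the background. Under each of the other scalings, and with untrended empirical Bayes, 0 of these factors were under 0.05 (limma, unadjusted). Klf7, a factor that promotes axon growth, averaged 97.3 ± 3.02 TPM fed against 104.5 ± 1.11 TPM fasted (SD, n = 3 each), Smad1, which carries BMP signals, averaged 24.7 ± 0.52 against 26.3 ± 0.71 TPM, and Klf6 averaged 36.9 ± 1.33 against 39.1 ± 1.45 TPM.

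Of 11 other growth cone and cytoskeleton genes 9 were higher and 2 lower (median 0.05; 7 and 4 under median-of-ratios scaling or without fed replicate 2; limma, 1 at an unadjusted p under 0.05). The actin-bundling Fscn1 was at 33.5 ± 1.08 against 37.9 ± 2.07 TPM (log2 fold change 0.18 with a standard error of 0.05; adjusted p = 0.47 by limma). Stmn2, a microtubule regulator, was at 1720 ± 68.9 against 1789 ± 16.6 TPM, and the tubulin Tuba1a at 4652 ± 272.2 against 4887 ± 63.4 TPM. Over all tested genes 62.5% were higher, and 6.72% were higher at an unadjusted p under 0.05 (limma). The neuron markers, which share Tubb3 with this list, were higher in 10 of 10 (median 0.08), and their part in these values was not tested.

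Among effectors and signals most lay lower in fasted libraries, where 37.5% of all tested genes were lower and 3.22% were lower at an unadjusted p under 0.05. Macrophage (12 of 12), endothelial (10 of 10) and skeletal muscle markers (14 of 14) lay lower too, and their part in these values was not tested. Of 12 other effectors 1 was higher and 11 lower (median -0.07, and -0.03 without fed replicate 2; limma, 2 at an unadjusted p under 0.05). Csrp3, a LIM protein of striated muscle that injured neurons also express, was at 1.23, 4.04 and 2.51 TPM (fed 1 to 3) and 0, 0.24 and 0.39 TPM (fasted 1 to 3), and its highest value is that of fed replicate 2. It passed the filter only through the fed libraries, so its direction was partly set by the filter. Anxa1, a phospholipid-binding protein, was at 9.64 ± 0.41 against 7.69 ± 1.15 TPM, and the integrin Itga7 at 83.8 ± 4.90 against 78.8 ± 0.75 TPM. Of 8 other peptides, receptors and signals 1 was higher and 7 lower (median -0.09, and -0.07 without fed replicate 2; limma, 1 at an unadjusted p under 0.05). The natriuretic peptide gene Nppb was at 21.2 ± 1.05 against 18.1 ± 2.44 TPM, Bdnf at 26.2 ± 6.21 against 20.1 ± 0.83 TPM, and the GDNF receptor Gfra1 at 105.1 ± 4.61 against 99.2 ± 2.93 TPM. Arg1, Cckbr, Il6, Lif, Reg3b and Vip averaged below 1 TPM and were not tested.

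Of 18 genes that axotomy is known to lower in sensory neurons, 12 lay higher and 6 lower after fasting, and none passed (limma; 2 at an unadjusted p under 0.05, both lower). Over all tested genes 62.5% were higher, so this split is near the background. The median was 0.05, against 0.03 over all genes, and 0.01 without fed replicate 2. In the lower direction 3.22% of all tested genes were under 0.05 (limma, unadjusted). None of the 18 was lower at that p once fed replicate 2, fasted replicate 1 or fasted replicate 2 was left out. The opioid receptor Oprm1 was at 12.8 ± 0.75 against 10.6 ± 1.12 TPM, the peptide gene Calcb at 261.6 ± 22.3 against 233.1 ± 5.62 TPM and the neurofilament Nefm at 2907 ± 148.4 against 3153 ± 190.6 TPM.

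Immediate early genes are known to respond to dissociation. Of 13 tested, 9 lay higher and 4 lower after fasting, and none passed (limma). At an unadjusted p under 0.05 (limma) there were 0, against 6.72% higher and 3.22% lower over all tested genes. The split of 9 and 4 is near the 62.5% higher of all tested genes. It was 7 and 6 without fed replicate 1 or without fed replicate 3. Ier2 was at 7.16 ± 0.25 against 6.36 ± 0.47 TPM, the phosphatase Dusp1 at 20.1 ± 1.85 against 22.7 ± 2.55 TPM and Arc at 2.50 ± 0.22 against 2.92 ± 0.07 TPM. The summed TPM of the 14 listed was 307.3 in fed replicate 1, 330.3 in fed replicate 2 and 326.9 in fed replicate 3, and 325.5 to 341.8 in fasted libraries. Jund alone supplied 171.4 to 189.7 TPM of each sum. The part of dissociation in the values of the 10 genes was not tested.

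**Figure D5:**
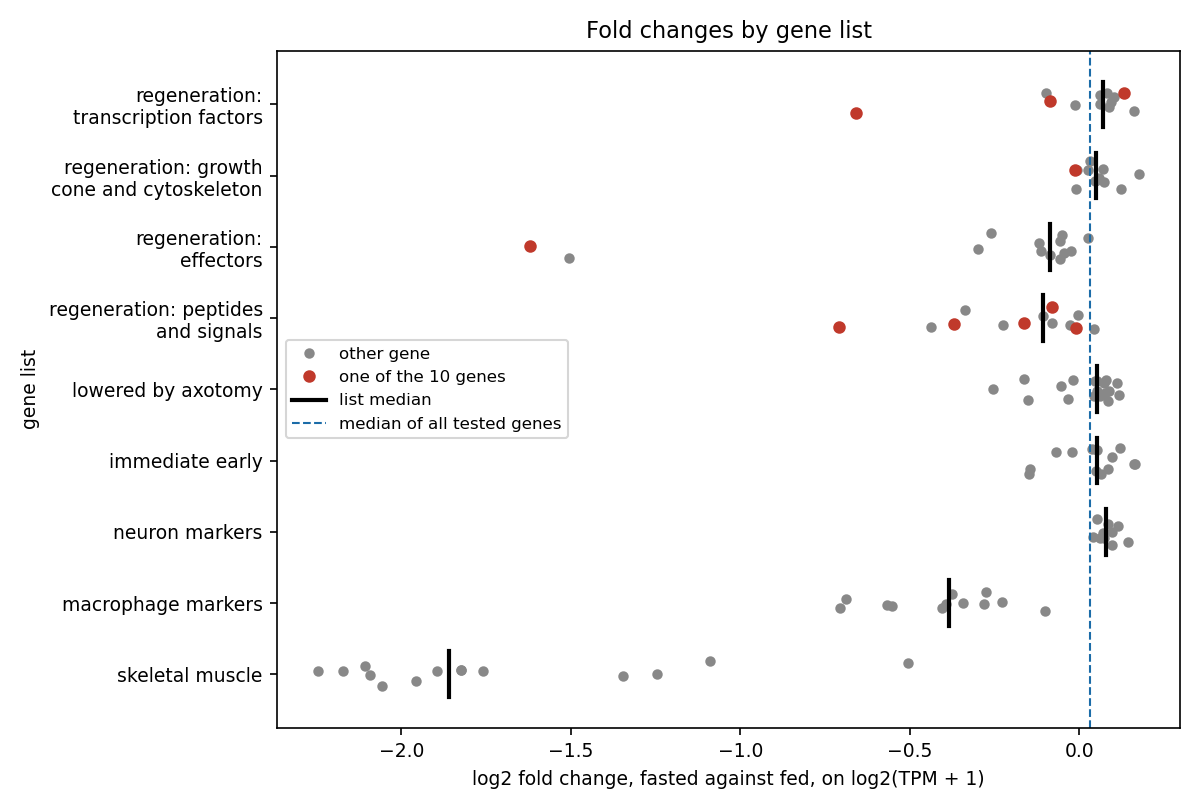
Log2 fold change of fasted against fed on log2(TPM + 1) (horizontal axis) for every tested gene of 9 lists (rows); red points are members of the set of 10, grey points other genes, black lines list medians and the dashed line the median of all tested genes (0.03). Atf3, Sprr1a and Ecel1 lie at -0.66, -1.62 and -0.71. Of the other regeneration genes only Csrp3, at -1.51, lies as low. The median of the skeletal muscle genes is -1.86 here, and was -0.77 without fed replicate 2.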

How the data were processed

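Polyadenylated RNA (a stranded library kit, per the labels' protocols) was measured in 3 fed and 3 fasted libraries. The deposited values are TPM per transcript, and each library sums to 1000000. The tools named per the submitters' processing notes are Salmon 1.6.0, DESeq2 1.34.0, FastQC 0.11.9 and Trim Galore 0.6.6, and the builds GRCm38 and mm10; the roles of these tools and the annotation release are not given in the sources used here. TPM is relative to the library total and holds no depth, so no count test was run.

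TPM was summed per gene symbol. The 15097 genes that averaged 1 TPM or more were analysed as log2(TPM + 1) with limma 3.58.1 (R 4.3.3, a diet term alone, trended empirical Bayes, two-sided), with p-values adjusted by Benjamini-Hochberg over all of them and a threshold of 0.05. No label says that replicates are separate animals, so p-values reflect only how these libraries vary, which may be technical. Loci and transcript models came from GENCODE M21 (GRCm38) and promoters from RefSeq. Plots used matplotlib 3.10.9 in Python 3.11.15.

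The 10 genes and the other lists were chosen with earlier results of these data known. Named from each regeneration, axotomy and immediate early list were the 3 tested genes with the smallest p besides the 10 (the rule covered the cell marker lists too, of which only counts, medians or sums are given), with Ckm and Hba-a2 for libraries that stand apart and, for Atf3 and Gap43, the 5 genes most alike (predicted and clone names counted, not named). The untested genes and Jund were named after their values were seen. Alternatives were pseudocounts of 0.1 and 0.5, no filter or a minimum of 5 TPM, 4 scalings, untrended or robust empirical Bayes, array weights, a replicate block, sums per gene identifier, and each library left out; the count of the 10 without overlap, under the scalings and without each library, was added after seeing the data.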

Additional observations from a re-analysis of the deposited data

How the results depend on the processing

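Atf3, Jun, Sprr1a, Flrt3, Ecel1 and Gpr151 kept their direction in every setting in which they were tested, and none of the 10 genes passed in any. With a minimum of 5 TPM only 5 of the 10 were tested, and Ecel1 was not tested without fed replicate 2. Without 1 library, log2 fold changes ran from -1.05 to -0.35 for Atf3, -2.56 to -0.86 for Sprr1a, -0.206 to 0.0616 for Sox11, -0.0856 to 0.0380 for Gap43, -0.279 to 0.213 for Npy and -0.0802 to 0.0741 for Csf1; the cause of the reversals was not tested. With array weights Gap43 was at 0.0040 and Csf1 at 0.0322. The genes called numbered 1 in the main test, 2 with a pseudocount of 0.1 and 2 with 0.5, 0 without a filter, and 1 to 7 without 1 library. The genes of the 10 without overlap numbered 2, and 2 to 7 without 1 library, the most without fed replicate 3. There 32.8% of all tested genes had no overlap. With a replicate block, 1 gene was called and Atf3 was at -0.66 (limma, adjusted p = 0.48), and no call among the 10 differed. Deviations of same-numbered libraries correlated at 0.09, 0.11 and 0.07, and those of unlike-numbered ones at -0.12 to 0.04. Deviations cancel out within a diet for each gene, so these values are tied to one another. The highest were those of same-numbered libraries, though all were weak. No label ties the numbers to a batch, so the main fit had no block, and whether they mark one was not tested. With no read depth, differences among genes near 1 TPM cannot be weighed against counting error.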
